A study of Arabidopsis thaliana with 11 samples.

Results

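The difference between the salt response of root pericycle cells and that of root cortex cells was examined across the Arabidopsis genome array. For each probe set, the group of probes that measures a transcript, it is the log2 change with salt in pericycle minus the log2 change with salt in cortex. All 11 arrays of the study enter this difference, and 22746 probe sets were tested. The groups were 3 arrays of pericycle cells with salt, 2 of pericycle cells without salt, 3 of cortex cells with salt and 3 of cortex cells without salt. Pericycle cells came from the line J2731 and cortex cells from the line J1551, so that line and cell type cannot be told apart. All seedlings were 7 days old. Salt-treated seedlings grew for 5 days without salt, then had 25 mM NaCl with 0.22 mM CaCl2 for a day and 50 mM NaCl with 0.375 mM CaCl2 for the last day. Control seedlings had no added NaCl for all 7 days. In all 4 groups the roots were digested to protoplasts with wall-degrading enzymes and sorted by fluorescence, and a biological sample was the seedlings of 1 tank.

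The cortex is ground tissue between the epidermis and the endodermis, and water and ions cross it on the way to the stele. The pericycle lies just inside the endodermis, forms new lateral roots and borders the vessels into which ions are loaded. Both layers are known to answer salt with changes in wall-modifying enzymes, hormone signalling and transport, and a difference of responses asks which of these changes depend on the layer.

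Expression is given as the deposited log2 values, so a difference of 1 is a doubling. Array medians lay between 3.41 and 3.58. Arrays within a group correlated at 0.917 to 0.966 for pericycle salt, 0.947 for pericycle control, 0.993 to 0.994 for cortex salt and 0.987 to 0.99 for cortex control. Pericycle salt replicate 1 stood apart, with the lowest array weight (0.171), and it correlated at 0.917 and 0.919 with the remaining pericycle salt arrays. LBD16, a transcription factor of lateral root initiation in the pericycle, was the 1 pericycle marker of 4 found in the probe annotation. In pericycle LBD16 was at 6.04, 7.07 and 6.20 with salt and 6.37 and 5.92 without it. In cortex it was at 1.93 to 2.26 with salt and 2.06 to 2.47 without it. The label cortex was not borne out in this way. Of its 3 markers, AT1G62500 lay between 1.66 and 2.03 on all 11 arrays, under the floor defined below. AT5G02000 was higher in cortex controls (6.22 to 6.61) than in pericycle controls (4.01 and 6.04). With salt it overlapped, at 5.18 to 6.15 in cortex and 4.86 to 6.90 in pericycle. AT1G09750 was at 4.80 to 5.36 in cortex controls and at 5.36 and 6.38 in pericycle controls. With salt it was at 4.01 to 5.11 in cortex and 5.11 to 6.12 in pericycle. The mean of the 3 markers was 4.42 and 4.26 in pericycle salt and control and 3.94 and 4.41 in cortex salt and control. Cortex is therefore used here as the name of the line's sorted cells. The mean of 4 measured root hair markers was 2.80 to 4.27 in pericycle salt arrays and 4.14 to 4.52 in pericycle control arrays, and 3.09 to 3.87 in cortex salt arrays and 5.06 to 5.40 in cortex control arrays. None of the 4 passed for the difference of responses, and the part of root hair cells in the results was not tested. The phloem marker OPS was also higher in pericycle, at 7.08 with salt and 5.98 without. In cortex OPS averaged 4.26 with salt and 4.31 without. The part of phloem cells in the sorted pericycle cells was not tested. No listed marker of endodermis, xylem or root cap was found as a single gene in the probe annotation. That annotation gave no gene for 8730 probe sets, so whether the array measures these markers is not known here. The 3' minus 5' signal of GAPDH, a measure of RNA integrity, averaged 1.26 ± 0.139 in pericycle salt (n = 3), 1.46 ± 0.0387 in pericycle control (n = 2), 1.23 ± 0.198 in cortex salt (n = 3) and 1.16 ± 0.0839 in cortex control (SD, n = 3). In sorted samples, fewer cells of a type and less RNA per cell cannot be told apart.

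In 190 probe sets pericycle and cortex answered salt differently, which is 0.835% of those tested. It was more positive in pericycle for 134 (0.589%) and more negative in pericycle for 56 (0.246%). The test was the interaction contrast in limma at an adjusted p under 0.05. In the same fit, 453 probe sets (1.99%) changed with salt in pericycle and 946 (4.16%) changed in cortex. These counts depend on how arrays are weighted. With a weight per array 32 passed in pericycle and 4775 in cortex, and with a weight per cell type 5 and 4214. In the fit without weights, the 190 split unequally by the layer whose response passed. Of the 134, 100 fell in cortex without a change that passed in pericycle, where 2.73% of all probe sets fell in cortex. Their median response was 0.18 in pericycle and -2.22 in cortex. Of the 946 that passed in cortex, 326 rose and 620 fell, but with a weight per array 2687 rose and 2088 fell. A further 22 rose in pericycle without passing in cortex, where 1.04% of all probe sets rose in pericycle, with a median pericycle response of 1.85. The remaining 12 were 5 that rose in pericycle and fell in cortex, 3 that fell in both and fell less in pericycle, and 4 that passed in neither layer alone. Of the 56, 33 fell in pericycle without passing in cortex, against 0.95% of all probe sets falling in pericycle, with a median pericycle response of -1.71. Another 18 rose in cortex without passing in pericycle, against 1.43% of all probe sets rising in cortex, with a median cortex response of 1.70. The last 5 passed in neither layer alone, and none of the 56 passed in opposite directions. Selection for a large difference favours probe sets whose response passed in a layer, so the shares over all probe sets are given as background only.

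**Figure D1:**
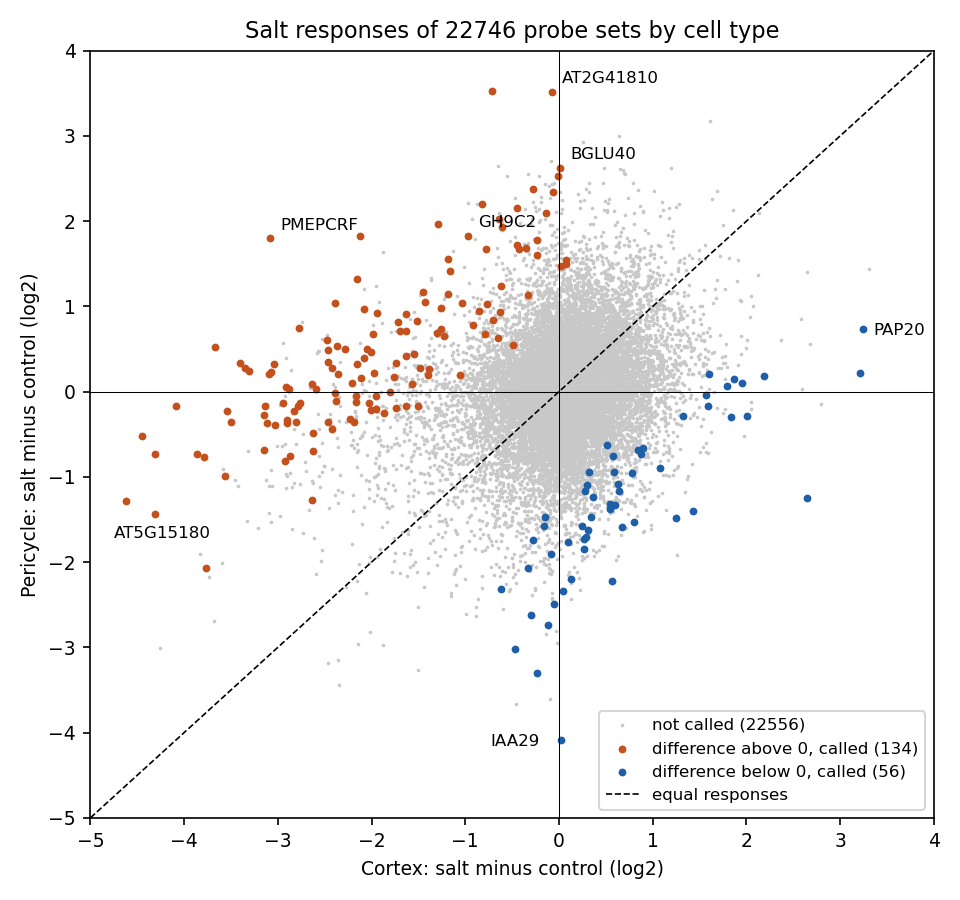
Each point is a probe set, placed by its salt minus control difference (log2) in pericycle on the y axis and in cortex on the x axis. Orange points (134) lie above and blue points (56) below the dashed line of equal responses, and 22556 gray points did not pass; most orange points lie left of 0 in cortex and near 0 in pericycle.

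Only large differences could pass with this number of arrays. The median standard error was 0.364 for the difference, against 0.271 for the pericycle response and 0.243 for the cortex response. The median half-width of a 95% interval of the difference was 0.811. For each probe set the fit pools 1 spread over the 4 groups, so these errors differ by array number only. They do not show each layer's own spread. Over all probe sets the pericycle arrays had the larger SDs, given below. Pericycle errors can therefore be too small and cortex errors too large. The smallest difference that passed was 1.04 and the median size was 2.27. Of 2902 probe sets with a difference of 1 or more in either direction, 190 passed. Of 360 with 2 or more, 116 passed, and of 49 with 3 or more, 29 passed. Within groups the 190 were somewhat less scattered than the average probe set in pericycle. Their median SD was 0.289 in pericycle salt and 0.196 in pericycle control arrays, against 0.365 and 0.250 over all probe sets. In cortex salt and control arrays it was 0.189 and 0.200, against 0.139 and 0.181 over all. Salt arrays lay wholly on one side of control arrays for 129 of the 190 in pericycle, where the share among all probe sets was 21%, and for 158 in cortex, where it was 34.1%. The 190 were selected on these same arrays for a difference large against its error, which favours low SDs and separate arrays. Of the 190, 86 had exactly 1 gene in the probe annotation, and these are the ones described by name below. A further 102 had no gene there and 2 had several.

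Opposite directions, up with salt in pericycle and down in cortex, were seen in 5 probe sets, of which 4 had a gene and 2 of those encode enzymes of the cell wall. With all 11 arrays weighted alike, all 5 passed in both layers. With a weight per array the 5 differences and the 5 cortex falls passed, but none of the 5 pericycle rises did (limma adjusted p 0.0518 to 0.216), and with a weight per cell type none did either. Without cortex salt replicate 1, cortex salt replicate 3 or cortex control replicate 1, none of the 5 passed in both layers at once. PMEPCRF (probe set 248263_at) encodes a pectin methylesterase, an enzyme that removes methyl groups from wall pectin. Its level was 6.18, 6.07 and 5.59 in pericycle salt arrays, against 4.83 and 3.46 in pericycle controls. In cortex it was 4.07, 4.24 and 4.28 with salt, against 7.36, 7.08 and 7.41 without. No salt array overlapped a control array in either layer, and the cortex controls were the highest of the 4 groups. The pericycle response was 1.80 ± 0.347 (SE; limma adjusted p = 0.033) and the cortex response -3.09 ± 0.311 (limma adjusted p = 5.39e-04). The difference of 4.89 ± 0.466 (limma adjusted p = 3.00e-03; 95% interval 3.85 to 5.93), a ratio of 29.6 between the fold changes, was the largest of all probe sets tested. The pericycle part rests on control arrays that differ from each other: the difference was 5.57 without pericycle control replicate 1 and 4.21 without pericycle control replicate 2, and it passed in both fits. The pericycle response taken alone passed in 3 of the 11 fits that left out 1 array, with values from 1.12 to 2.48.

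GH9C2 (259736_at) encodes a family 9 endoglucanase, a class of enzyme that cuts cellulose-like chains. Pericycle salt arrays stood at 6.97, 7.46 and 7.07, against 5.23 and 5.44 in pericycle controls. Cortex salt arrays stood at 5.82, 6.14 and 5.87, against 7.08, 6.67 and 6.99 in cortex controls. The salt level in pericycle was thus near the control level in cortex, and the control level in pericycle near the salt level in cortex. The responses were 1.83 ± 0.210 in pericycle and -0.97 ± 0.188 in cortex, and the difference was 2.80 ± 0.282 (limma adjusted p = 3.58e-03). It stayed between 2.65 and 2.92 in all 20 alternative fits and passed in each. The cortex response alone passed in 7 of the 11 fits without 1 array and the pericycle response in all 11.

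AT4G23730, AT2G01300 and a probe set with no gene in the annotation (255591_at) completed the opposite set. AT4G23730 was at 7.10, 6.39 and 6.54 in pericycle salt arrays and 5.35 and 4.89 in pericycle controls, and at 5.14, 5.24 and 4.82 in cortex salt arrays and 6.61, 5.91 and 6.24 in cortex controls. Its difference was 2.74 ± 0.379 (limma adjusted p = 0.0123). AT2G01300 was at 5.01, 3.85 and 4.01 in pericycle salt arrays and 2.94 and 2.81 in pericycle controls, and at 4.57, 4.68 and 4.57 in cortex salt arrays and 5.56, 5.79 and 5.95 in cortex controls. Its mean control level in pericycle lay just above the floor, and pericycle salt replicate 1 was its highest pericycle array. The difference of 2.58 ± 0.408 (limma adjusted p = 0.0234) was 2.21 without that array (adjusted p = 4.56e-03). It was lost without pericycle control replicate 2 (adjusted p = 0.0506) and without any 1 of the 6 cortex arrays (adjusted p up to 0.0851). For 255591_at the difference was 3.25 ± 0.390 (limma adjusted p = 5.89e-03), with responses of 1.96 in pericycle and -1.29 in cortex. AT4G23730 missed the threshold without cortex salt replicate 3 (2.62, adjusted p = 0.052), whereas 255591_at passed in all 20 alternative fits. The pericycle responses taken alone were less firm, at 1.56 ± 0.283 for AT4G23730 and 1.41 ± 0.304 for AT2G01300, and passed in 6 and 3 of the 11 fits without 1 array. The cortex responses alone passed in 6 of the 11 for AT4G23730, 5 for AT2G01300 and 7 for 255591_at.

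**Figure D2:**
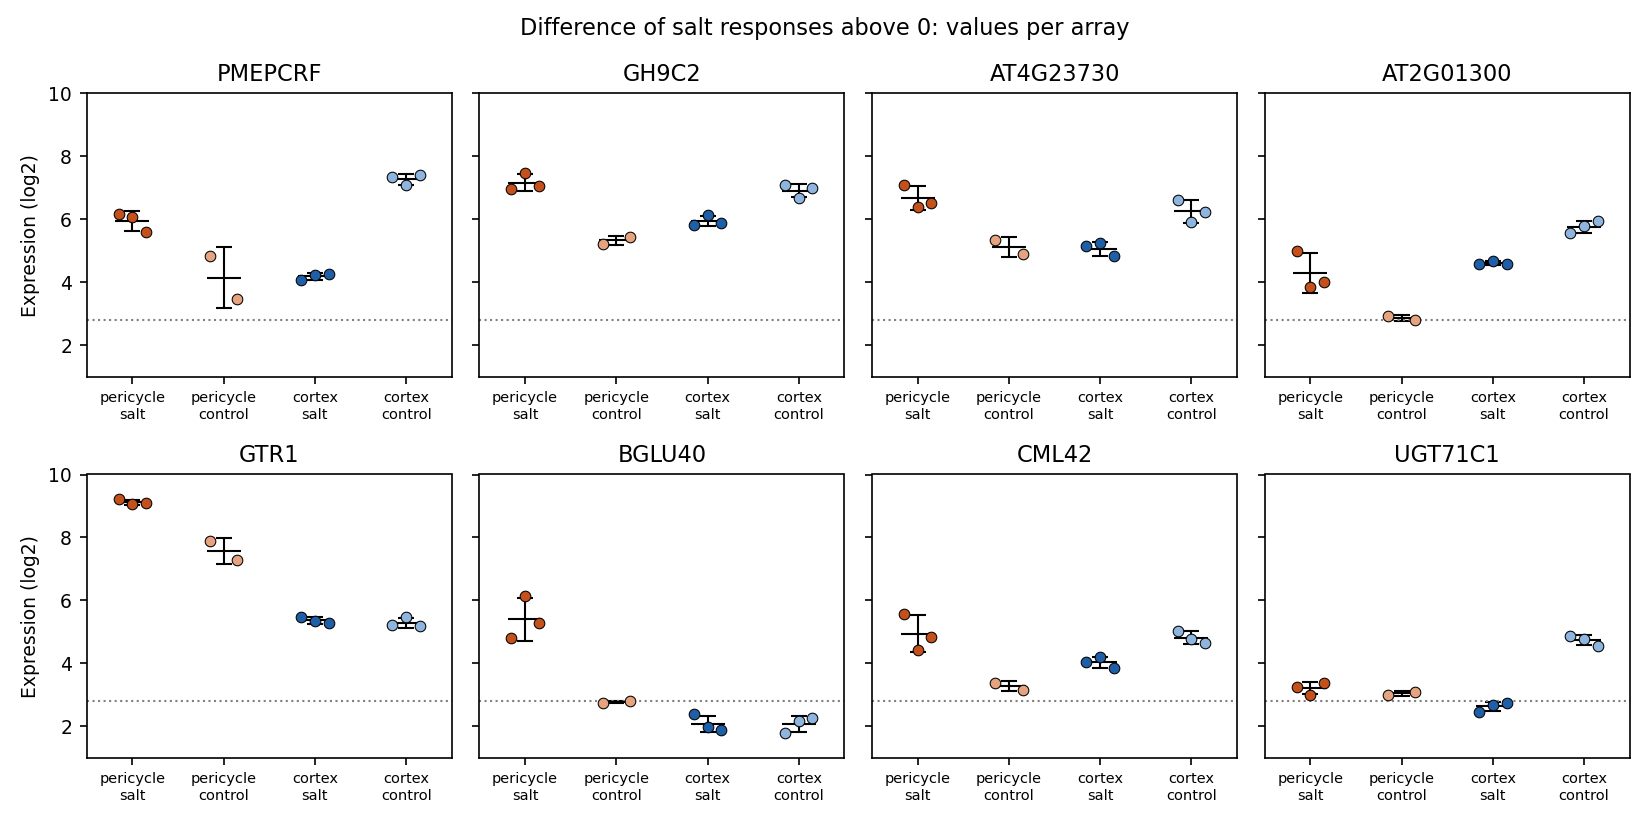
Expression (log2) of 8 genes with a difference of responses above 0, by group; points are arrays, horizontal lines and bars are the mean and SD (n = 3, 2, 3 and 3), and the dotted line is the floor of 2.81. PMEPCRF, GH9C2, AT4G23730 and AT2G01300 are higher with salt in pericycle and lower with salt in cortex; GTR1 and BGLU40 differ with salt in pericycle only; UGT71C1 differs with salt in cortex only, and CML42 passes in pericycle only.

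The largest class was the 100 probe sets that fell in cortex alone, where alone means that the other layer did not pass. In AT3G22240 (256617_at) pericycle arrays read 5.63, 5.53 and 5.47 with salt and 5.13 and 5.53 without, and cortex arrays read 4.60, 4.39 and 4.28 with salt and 7.38, 7.42 and 7.75 without. In AT3G18560 (256799_at) the pericycle read 5.12, 5.76 and 5.33 with salt and 4.86 and 5.29 without, and the cortex 3.07, 3.22 and 3.12 with salt and 6.42, 6.07 and 6.04 without. In both genes the pericycle groups overlapped and the cortex groups were about 3 log2 units apart. The differences were 3.31 ± 0.260 for AT3G22240 and 3.36 ± 0.308 for AT3G18560 (limma adjusted p = 2.54e-03 for each). AT5G48290, at 2.82, 2.82 and 1.76 in pericycle salt arrays and 2.82 and 2.83 in pericycle controls, was at 2.47, 2.16 and 2.06 in cortex salt arrays against 5.83, 5.83 and 5.52 in cortex controls. Its pericycle mean was just above the floor without salt and under it with salt, and its difference was 3.13 ± 0.413 (limma adjusted p = 9.95e-03).

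A further 4 named genes fell in cortex alone. UGT71C1 (266669_at), an enzyme of the UDP-glycosyltransferase family, which attaches sugars to small molecules, had 3.25, 2.99 and 3.38 in pericycle salt arrays and 2.99 and 3.10 in pericycle controls. In cortex it had 2.45, 2.69 and 2.75 with salt and 4.88, 4.79 and 4.56 without. The pericycle arrays overlapped and the cortex arrays did not, and the difference was 2.28 ± 0.249 (limma adjusted p = 4.19e-03). GT72B1 (255622_at), another UDP-glycosyltransferase, was lower with salt on every array of both layers: 5.85, 5.87 and 6.23 against 6.82 and 6.55 in pericycle, and 3.73, 3.40 and 3.74 against 6.68, 6.17 and 5.88 in cortex. The pericycle value of -0.70 ± 0.251 did not pass, the cortex response was -2.62 ± 0.225, and the difference was 1.92 ± 0.337 (limma adjusted p = 0.0352). BGLU15 (267388_at), a beta-glucosidase, which releases sugar from such conjugates, had 6.83, 7.24 and 7.63 in pericycle salt arrays and 6.95 and 6.68 in pericycle controls, and 5.93, 6.09 and 5.80 in cortex salt arrays and 7.56, 7.61 and 7.55 in cortex controls. Its difference was 2.05 ± 0.307 (limma adjusted p = 0.0173). TBL41 (256600_at), of the family of wall polysaccharide acetylation proteins, had a cortex response of -2.83 ± 0.334 and a difference of 2.61 ± 0.502 that barely passed (limma adjusted p = 0.0495). Its pericycle salt arrays spread from 3.64 in replicate 1 to 5.18, around 4.69 in both controls, and without pericycle salt replicate 1 the difference was 3.02 (adjusted p = 4.75e-03). TBL41 missed the threshold without any 1 of the other arrays except pericycle salt replicate 2, with adjusted p up to 0.151. GT72B1 missed it without pericycle control replicate 2, any cortex salt array, or cortex control replicates 1 or 2 (1.70 to 1.98, adjusted p up to 0.103), and BGLU15 without cortex salt replicates 1 or 3 or cortex control replicates 1 or 2 (1.99 to 2.06, adjusted p up to 0.0711).

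Among the 15 largest positive differences with 1 gene, 10 were of this kind. The others not yet given were AT5G19240 (3.94 ± 0.542, limma adjusted p = 0.0121), AT5G01210 (3.63 ± 0.669, 0.0423), AT5G55050 (3.56 ± 0.516, 0.0157) and AT3G16560 (3.48 ± 0.604, 0.0346). AT2G42860 (3.08 ± 0.359), AT3G18450 (2.97 ± 0.413) and AT1G51990 (2.96 ± 0.444) were near the floor in pericycle. AT5G19240 had the pericycle value nearest to passing: 4.22, 5.23 and 3.42 with salt, against 2.58 and 2.36 without, a response of 1.82 ± 0.404 (limma adjusted p = 0.0534). AT5G01210 had its highest pericycle value, 8.58, on pericycle salt replicate 1, against 6.70 and 6.90 on the other salt arrays and 7.19 and 7.04 on controls, and its difference was 3.03 without replicate 1 (adjusted p = 8.50e-03). Without pericycle control replicate 2 or any 1 of the cortex arrays, AT5G01210 missed the threshold (3.37 to 3.78, adjusted p up to 0.13), as it did with quantile normalization. AT3G16560 missed it without the same arrays (3.15 to 3.75, adjusted p up to 0.109). Single cortex arrays decided the call of 4 others. AT5G19240 lost it without cortex salt replicate 3 (3.94, adjusted p = 0.0505). AT5G55050 lost it without cortex salt replicate 3 or cortex control replicate 2 (3.56 and 3.33, adjusted p = 0.063 and 0.0504). AT3G18450 and AT1G51990 lost it without cortex salt replicates 1 or 3 (2.87 to 2.95, adjusted p up to 0.0702).

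AT5G15180 (250157_at) fell in both layers and fell further in cortex. Pericycle arrays read 2.05, 2.23 and 2.96 with salt and 3.79 and 3.60 without, and cortex arrays read 1.92, 2.23 and 2.21 with salt and 6.59, 7.02 and 6.61 without. With salt it stood at about the same low level in both layers, and the 5 arrays without NaCl separated by layer. The cortex response was -4.62 ± 0.243, the pericycle response was -1.28 ± 0.272 (limma adjusted p = 0.0456), and the difference was 3.34 ± 0.365 (limma adjusted p = 4.19e-03). The level with salt was at or near the floor in both layers, so both sizes are those of falls that end where the array gives little measure, and they are not ranked against other falls. The pericycle response passed in 1 of the 11 fits without 1 array, with values from -1.55 to -1.10, while the difference passed in all 11. Without pericycle salt replicate 1 the pericycle response was -1.10 (adjusted p = 0.0508) and the difference 3.52.

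The 22 probe sets that rose in pericycle alone included a transporter, a calcium sensor and a further beta-glucosidase. AT2G41810 (260495_at) was at 7.09, 7.51 and 7.24 in pericycle salt arrays against 4.43 and 3.10 in pericycle controls. In cortex it was at 6.31, 6.95 and 5.83 with salt and at 6.00, 7.16 and 6.16 without, so that salt and control arrays overlapped. Its difference was 3.59 ± 0.628 (limma adjusted p = 0.0349). GTR1 (252377_at), a transporter of glucosinolates, was at 9.21, 9.07 and 9.08 in pericycle salt arrays against 7.87 and 7.27 in controls, and at 5.47, 5.33 and 5.29 in cortex salt arrays against 5.21, 5.47 and 5.19 in controls. It was higher in pericycle in both conditions and its gap between layers was 3.76 with salt and 2.28 without, a difference of 1.48 ± 0.270 (limma adjusted p = 0.0408). CML42 (254487_at), a calmodulin-like calcium sensor, had 5.58, 4.43 and 4.83 in pericycle salt arrays and 3.38 and 3.16 in pericycle controls, and 4.03, 4.22 and 3.86 in cortex salt arrays and 5.04, 4.78 and 4.63 in cortex controls. Salt and control arrays did not overlap in either layer. The pericycle response was 1.68 ± 0.300 (limma adjusted p = 0.0259), the cortex value of -0.78 ± 0.268 did not pass (limma adjusted p = 0.173), and the difference was 2.46 ± 0.402 (limma adjusted p = 0.0269). BGLU40 (261016_at) was at 4.80, 6.14 and 5.27 in pericycle salt arrays and at 2.75 and 2.80 in controls, while all 6 cortex arrays lay between 1.79 and 2.38. Its difference of 2.62 ± 0.461 (limma adjusted p = 0.0352) comes from pericycle alone, since it was near the floor in cortex. All 4 lost their call without pericycle control replicate 2 or any 1 of the cortex arrays, except that AT2G41810 passed without cortex salt replicate 2. The values in those fits were 2.93 to 3.81 for AT2G41810, 1.17 to 1.53 for GTR1, 2.35 to 2.55 for CML42 and 2.52 to 2.77 for BGLU40, with adjusted p up to 0.138. AT2G41810 and GTR1 lost it without pericycle salt replicate 2 as well (3.48 and 1.50, adjusted p = 0.0593 for each). Without pericycle salt replicate 1 they were 3.69, 1.43, 2.14 and 2.92 in the same order, and all passed.

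Of the 33 probe sets that fell in pericycle alone, IAA29 (253423_at) had the largest difference in this direction of all probe sets tested. IAA29 encodes an Aux/IAA protein, a repressor of auxin-responsive transcription. Pericycle arrays read 2.65, 2.71 and 3.68 with salt, against 7.47 and 6.72 without. Cortex arrays read 2.16, 2.10 and 2.77 with salt, against 2.55, 2.87 and 1.53 without. It was well above the floor only in pericycle controls, and with salt its pericycle arrays came near the level of cortex. The pericycle response was -4.09 ± 0.450 (limma adjusted p = 6.00e-03), and the difference was -4.11 ± 0.604 (limma adjusted p = 0.0169; 95% interval -5.46 to -2.77). The call was lost without cortex salt replicate 1 (-4.20, adjusted p = 0.0533) or cortex salt replicate 3 (-3.90, adjusted p = 0.0642), arrays on which IAA29 was near the floor. Since 2 of the 3 pericycle salt readings lay under the floor, the size of the fall is uncertain. With a weight per array the pericycle response missed the threshold (limma adjusted p = 0.0518) and the difference passed (0.0406), and with a weight per cell type neither passed.

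AT1G67510 and AT4G11210 repeated this shape with less scatter. AT1G67510 (264226_at) was at 2.65, 2.90 and 3.47 in pericycle salt arrays and 6.03 on both pericycle controls, and at 2.28, 2.13 and 2.04 in cortex salt arrays and 2.66, 2.56 and 2.64 in cortex controls. AT4G11210 (254909_at) was at 2.40, 2.26 and 2.13 in pericycle salt arrays and 4.93 and 4.85 in pericycle controls, and at 1.96, 1.84 and 1.73 in cortex salt arrays and 2.11, 2.15 and 2.16 in cortex controls. In both genes the salt arrays of pericycle approached the cortex arrays, which lay under the floor. The differences were -2.55 ± 0.303 (limma adjusted p = 5.72e-03) and -2.33 ± 0.209 (limma adjusted p = 2.54e-03). AT2G27740 (266244_at) differed from these in staying high in pericycle: 5.62, 6.48 and 6.58 with salt, against 8.76 and 8.15 without, while cortex arrays ranged from 2.23 to 3.05 with salt and from 1.86 to 2.37 without. Its gap between layers was 3.54 with salt and 6.32 without, and the difference was -2.79 ± 0.466 (limma adjusted p = 0.0292). It missed the threshold without cortex salt replicates 1 or 3 or any 1 of the cortex controls (-2.91 to -2.61, adjusted p up to 0.1).

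AT3G51950 and ATG8C fell in pericycle with cortex levels above the floor. AT3G51950 (252033_at) was at 4.21, 4.21 and 4.45 in pericycle salt arrays and 5.97 and 6.03 in pericycle controls, and at 4.45, 4.67 and 4.45 in cortex salt arrays and 4.38, 4.24 and 4.07 in cortex controls. Salt brought pericycle to the cortex level, and the difference was -2.00 ± 0.228 (limma adjusted p = 4.76e-03), between -2.08 and -1.92 in all 20 alternative fits. ATG8C (264285_at), a ubiquitin-like protein attached to autophagosome membranes, was at 4.12, 4.29 and 4.36 in pericycle salt arrays and 5.22 and 5.18 in pericycle controls, and at 5.10, 5.10 and 4.89 in cortex salt arrays and 4.83, 4.86 and 4.44 in cortex controls. The pericycle response was -0.94 ± 0.182 (limma adjusted p = 0.033), the cortex value of 0.32 did not pass, and the difference of -1.26 ± 0.244 lay at the threshold (limma adjusted p = 0.0499). It held in 2 of the 11 fits that left out 1 array, without pericycle salt replicates 1 or 3, and in the other 9 it was -1.34 to -1.13 with adjusted p up to 0.16.

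**Figure D3:**
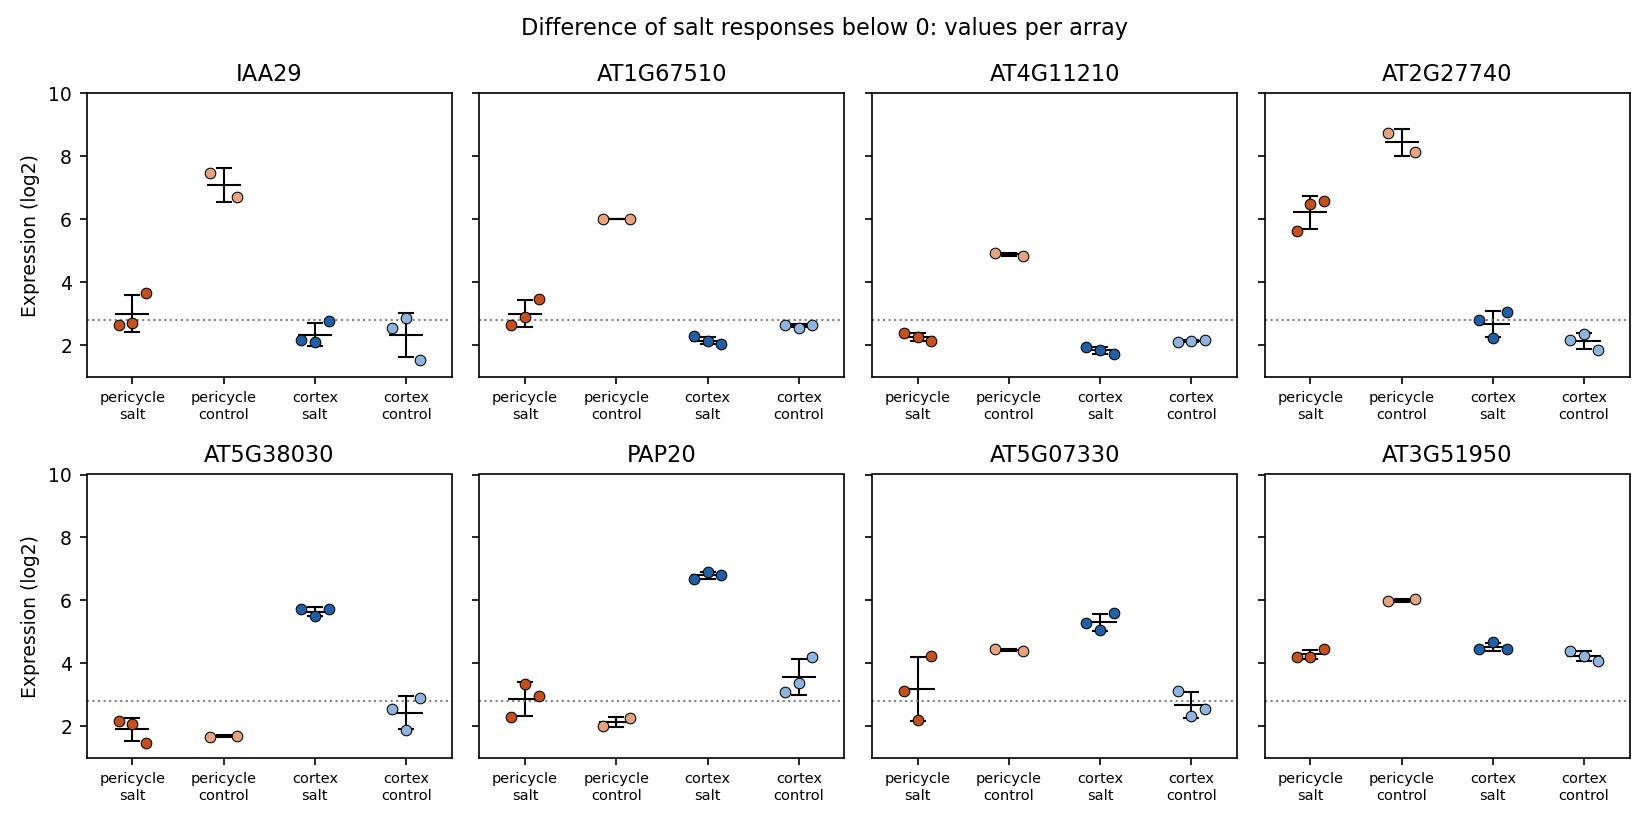
Expression (log2) of 8 genes with a difference of responses below 0, by group; points are arrays, horizontal lines and bars are the mean and SD (n = 3, 2, 3 and 3), and the dotted line is the floor of 2.81. IAA29, AT1G67510, AT4G11210, AT2G27740 and AT3G51950 are lower with salt in pericycle; AT5G38030, PAP20 and AT5G07330 are higher with salt in cortex.

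In cortex alone 18 probe sets rose, among them PAP20. PAP20 (252004_at) encodes a purple acid phosphatase, of a family that releases phosphate from organic compounds. It was at 6.68, 6.90 and 6.80 in cortex salt arrays, against 3.10, 3.36 and 4.20 in cortex controls. In pericycle it was at 2.29, 3.36 and 2.95 with salt and at 2.02 and 2.25 without, close to the floor throughout and without overlap. The pericycle value of 0.73 ± 0.355 did not pass (limma adjusted p = 0.357), the cortex response was 3.24 ± 0.318, and the difference was -2.51 ± 0.477 (limma adjusted p = 0.0481). AT5G38030 (249545_at) was at 2.15, 2.08 and 1.48 in pericycle salt arrays and 1.67 and 1.71 in pericycle controls, and at 5.72, 5.49 and 5.72 in cortex salt arrays and 2.54, 1.88 and 2.89 in cortex controls. Only the cortex salt arrays stood clear of the floor, and the difference was -2.99 ± 0.400 (limma adjusted p = 0.0103), which passed in all 11 fits without 1 array. AT5G07330 (250624_at) had the second largest negative difference of a named gene, -3.89 ± 0.647 (limma adjusted p = 0.0289). Its pericycle salt arrays read 3.12, 2.20 and 4.23 against 4.46 and 4.40 in controls, and its cortex salt arrays 5.27, 5.05 and 5.60 against 3.12, 2.34 and 2.54 in controls. The cortex response was 2.64 ± 0.431, and the pericycle value of -1.25 ± 0.482 did not pass (limma adjusted p = 0.237). AT5G07330 missed the threshold without pericycle control replicate 2 or any 1 of the cortex arrays (-4.12 to -3.73, adjusted p up to 0.102). PAP20 missed it without the same arrays, except that it passed without cortex control replicate 3 (-2.56 to -2.28 in the others, adjusted p up to 0.141), and also missed it with a weight per array, a trended or robust prior, or quantile normalization.

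The remaining genes among the 15 largest negative differences were spread over both patterns. AT2G34020 (-2.00 ± 0.328), AT1G66360 (-2.13 ± 0.380) and AT1G80750 (-2.29 ± 0.438) rose in cortex, by 2.19, 1.84 and 2.01. AT2G42130 (-2.11 ± 0.371), AT3G26850 (-2.33 ± 0.409) and AT3G52900 (-3.06 ± 0.585) fell in pericycle, with responses of -1.84, -1.53 and -3.30. AT1G64490 (-2.74 ± 0.526) passed in neither layer alone, with -1.49 in pericycle and 1.25 in cortex. Limma adjusted p for the difference lay between 0.0269 and 0.0495 for these 7 genes, and each passed in only 3 or 4 of the 11 fits without 1 array. In all 7 the call was lost without any cortex salt array and without any cortex control array. It was also lost without pericycle control replicate 2 for all but AT2G42130 and AT3G26850, without pericycle control replicate 1 for AT1G80750 and AT2G42130, and without pericycle salt replicate 2 for all but AT2G34020 and AT1G80750. Adjusted p rose to at most 0.156 in these fits and no value changed sign.

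A floor was needed because a gene with no measurable level in a layer can show no response there. It was set at 2.81, the 40th percentile of probe set means, and a probe set was near the floor in a layer when both its group means there were under it. Of the 190, 15 were near the floor in pericycle, 17 in cortex and none in both, against 8236 and 9059 of all 22746. Above the floor in all 4 groups were 131 of the 190, against 12012 of all probe sets (52.8%). Of the 134 more positive in pericycle, 10 were near the floor in pericycle and 3 in cortex, and 105 were above it in all groups. Of the 56 more negative, 5 were near it in pericycle and 14 in cortex, and 26 were above it in all groups. The 17 near the floor in cortex had a median response size of 0.232 there and of 2.34 in pericycle, where 14 fell and 3 rose. The 15 near the floor in pericycle had 0.185 there and 2.46 in cortex, where 10 fell and 5 rose. For these 32 the difference is in effect the response of a layer with a measurable level. BGLU40, AT5G50010, AT2G42130, AT4G11210, AT1G67510, AT2G27740, AT3G52900 and IAA29 were the ones with 1 gene near the floor in cortex. AT2G42860, AT3G18450, AT1G51990, AT1G51840, AT3G51350, AT4G00955, AT1G69480, AT2G34020 and AT5G38030 were near it in pericycle.

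The same difference can be read as a change in the gap between the layers, pericycle minus cortex. For the 134, the median gap was 1.31 with salt and -0.85 without, and 105 were higher in pericycle with salt, against 37 without. For the 56, it was -0.59 with salt and 1.28 without, and 17 were higher in pericycle with salt, against 47 without. The direction of these shifts follows from the sign of the difference, but the size of the gap does not. The gap was smaller with salt for 64 of the 134 and for 35 of the 56, and over all probe sets it was smaller with salt for 11466 of 22746 (50.4%). The higher layer changed with salt for 98 of the 190. PMEPCRF, with a gap of 1.75 under salt and -3.14 without, was one of these. AT5G48290, with 0.24 under salt and -2.90 without, was a gene whose cortex level with salt came close to that of pericycle, and GTR1 one whose lead in pericycle was larger with salt.

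**Figure D4:**
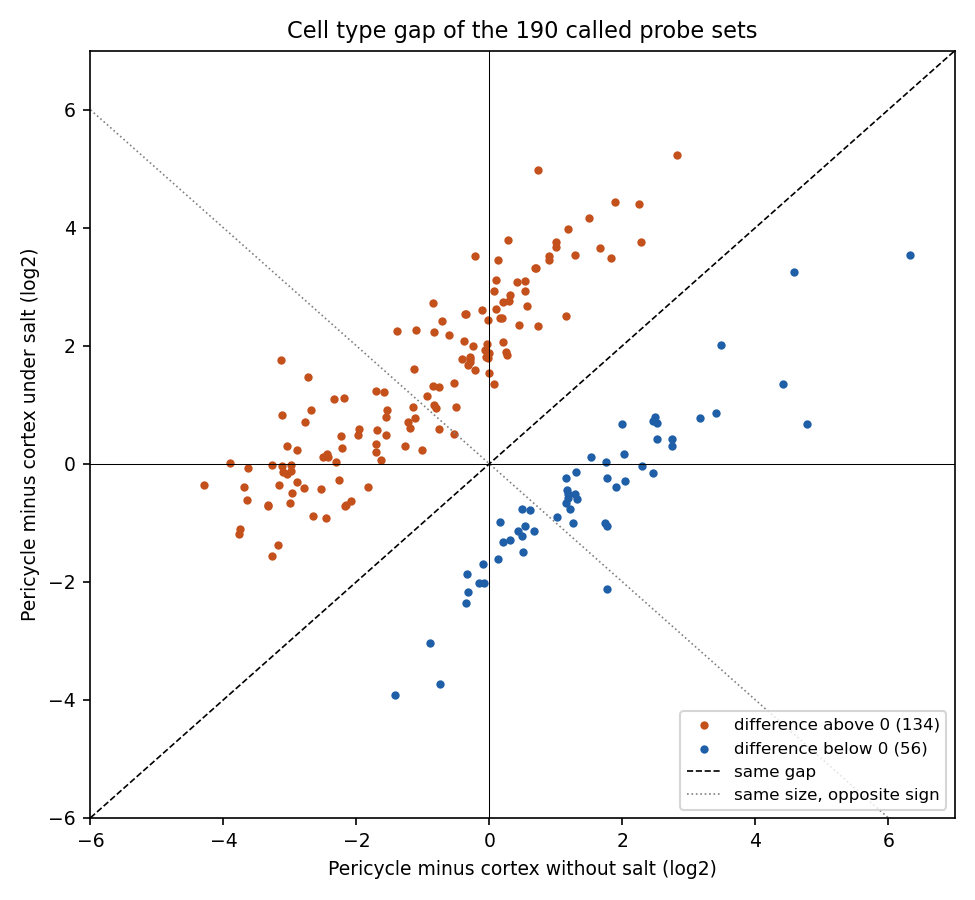
Each of the 190 probe sets is placed by its pericycle minus cortex gap (log2), with salt on the y axis and without salt on the x axis; orange points (134) have a difference of responses above 0 and blue points (56) below 0. Points between the x axis level of 0 and the dashed or dotted lines have a smaller gap with salt (99 of 190), and points in the upper left and lower right quadrants changed which layer was higher (98).

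Most genes that responded in both layers showed no difference that passed. In all, 78 probe sets passed in both layers, of which 30 rose in both, 43 fell in both and 5 moved in opposite directions. For 70 of the 73 that moved the same way the difference did not pass. Its median size among these 70 was 0.411, with a median half-width of 0.766 for the 95% interval, and the largest was 1.92. These intervals do not show that the responses were equal. Conversely, passing in 1 layer alone was a poor guide to a difference: of 868 probe sets that passed in cortex and not in pericycle, 118 had a difference that passed, and of 375 that passed in pericycle and not in cortex, 55 did.

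Gene families were read from the symbols in the annotation, and no list had more than 2 members that passed, where 0.835% of all probe sets did. With so few, a list's share moves much with a single member, and no list was tested as a group. Wall enzymes gave single members that passed: PMEPCRF among 5 pectin methylesterases and inhibitors, GH9C2 among 15 family 9 endoglucanases and TBL41 among 23 acetylation family members. The median difference was 0.18, 0.17 and -0.15 in these families, beside -0.015 over all probe sets. The other 14 endoglucanases ranged from -0.31 in GH9B16 to 1.25 in GH9B8, and none passed. None of 29 xyloglucan enzymes and expansins passed, with a median of 0.28, 20 above 0 and a range from -1.47 to 2.28. Over all probe sets, 11031 of 22746 were above 0. EXPA9, an expansin, a protein that loosens walls, had a value of 0.31 ± 0.292. None of 8 cellulose synthase family genes passed, nor did any of 6 class III peroxidases known by symbol. Peroxidases known by locus only could be missing from these 6. Prx37, a peroxidase of this class, had a value of 1.97 ± 0.667 (limma adjusted p = 0.237).

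Hormone and signalling lists were as sparse, against the same 0.835%. Of 13 auxin genes, IAA29 passed and the median was -0.039. WES1, an enzyme that conjugates auxin to amino acids, fell in cortex (-1.55 ± 0.292, limma adjusted p = 0.0164) and had a difference of 1.86 ± 0.438 that did not pass (limma adjusted p = 0.0939); it was picked out after its value was seen. The 6 other Aux/IAA genes measured had values from -0.45 in IAA30 to 0.45 in IAA18. None of 13 abscisic acid and dehydration genes passed, and 11 were above 0, against 11031 of all 22746 probe sets. The median of the 13 was 0.36, with COR47, a dehydrin, at 0.40 ± 0.199. CML42 was 1 of 8 calcium signalling genes, whose median was 0.24. None of 39 named transcription factors of the families listed passed, and their median was 0.0039. None of 6 cytokinin, 4 gibberellin and brassinosteroid, 2 jasmonate, 2 lateral organ boundaries and 2 heat shock genes passed, nor did the 1 ethylene gene and the 1 laccase.

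Transport and metabolism gave a few members each, read against 0.835% of all probe sets. GTR1 passed among 17 nitrate, phosphate, sulphate and metal transport genes, with a median of 0.17, and none passed among 19 transporters of potassium, protons, calcium and chloride, with a median of 0.11. VHA-A3, a subunit of the vacuolar proton pump, had a value of 0.49 ± 0.434. UGT71C1 and GT72B1 were 2 of 51 UDP-glycosyltransferases (3.92%, median 0.052) and BGLU15 and BGLU40 were 2 of 22 beta-glucosidases (9.09%, median -0.019). In cortex 3 UDP-glycosyltransferases rose and 4 fell. BGLU40 rose in pericycle and BGLU15 fell in cortex, and the differences that passed were positive in both families. None of 22 cytochromes P450 or 14 glutathione transferases passed, with medians of 0.093 and -0.080. CYP71B6, a cytochrome P450, rose in cortex (1.03 ± 0.160, limma adjusted p = 6.14e-03), with a difference of -0.55 ± 0.240 that did not pass. ATG8C passed among 11 autophagy genes, whose median was -0.093. Of 9 PUB ubiquitin ligases none passed, and PUB22 rose in pericycle (1.09 ± 0.202, limma adjusted p = 0.0299) with a difference of 0.91 ± 0.271 (limma adjusted p = 0.171). The rise of PUB22 passed in 4 of the 11 fits without 1 array, being lost without pericycle control replicate 1 or any cortex array, and it also missed the threshold with array weights (0.143 per array) and with the replicate block. No arabinogalactan protein, aquaporin, suberin or Casparian strip gene was annotated on the array table used.

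Plastid-encoded genes were the list with the highest median. None of 69 passed, but 65 were above 0, against 11031 of all 22746 probe sets. The median difference was 0.65, from 0.32 in pericycle and -0.29 in cortex. This median moved with single arrays, to 0.21 without pericycle control replicate 1, 0.40 without pericycle salt replicate 2, and 1.08 without either pericycle control replicate 2 or pericycle salt replicate 3. Genes of a plastid genome share their source of RNA, so the 69 are not separate observations. The 11 mitochondrion-encoded genes had a median of 0.0074, with none that passed.

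The count of 190 depended on single arrays in a regular way. Without any 1 cortex array it was 53 to 101, and without any 1 pericycle array 192 to 635. It was 436 without pericycle salt replicate 1, and all 190 were among these. It was 535 without pericycle salt replicate 3, 635 without pericycle control replicate 1 and 277 without pericycle control replicate 2. The pericycle groups have the larger SDs over all probe sets given above, and the part of this in the counts was not tested. The split of directions moved too, with 312 positive and 323 negative without pericycle control replicate 1 and 47 and 6 without cortex salt replicate 3. Of the 190, 49 passed in all 11 of these fits, 44 positive and 5 negative. With each pericycle array taken alone for its group, all 190 kept the sign of their difference, a property that their selection favours. Across these fits and 9 further settings, 38 passed in every one, 36 positive and 2 negative, and 14 had 1 gene. Of these settings, an adjusted p under 0.1 could lose no call. The 14 were PMEPCRF, GH9C2, UGT71C1, AT3G18560, AT5G15180, AT3G22240, AT5G48290, AT2G42860, AT5G49900, AT3G09960, AT1G51840, AT1G20070, AT3G51950 and AT1G67510. AT4G11210 passed in the 19 settings in which it was tested, and was left out of the one without dim probe sets.

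Of the 40 named differences, 30 passed with a weight per array, 16 with a weight per cell type and 22 with the replicate block. With a weight per array AT2G41810, AT3G16560, AT3G18450, GT72B1, GTR1, ATG8C, AT2G34020, AT1G66360, PAP20 and AT2G27740 were lost. With a weight per cell type these 10 were lost and 14 more, among them AT4G23730, BGLU40, CML42, TBL41, AT5G38030 and IAA29. The trended prior lost TBL41, GT72B1, GTR1, ATG8C, AT1G66360, AT1G80750 and PAP20, and the robust prior TBL41, ATG8C, AT1G80750, PAP20, AT1G64490 and AT3G52900. Quantile normalization lost AT5G01210, AT1G66360, AT1G80750, PAP20 and AT1G64490. Median centring lost ATG8C, and leaving out dim probe sets lost GTR1 and ATG8C of the 36 it tested.

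**Figure D5:**
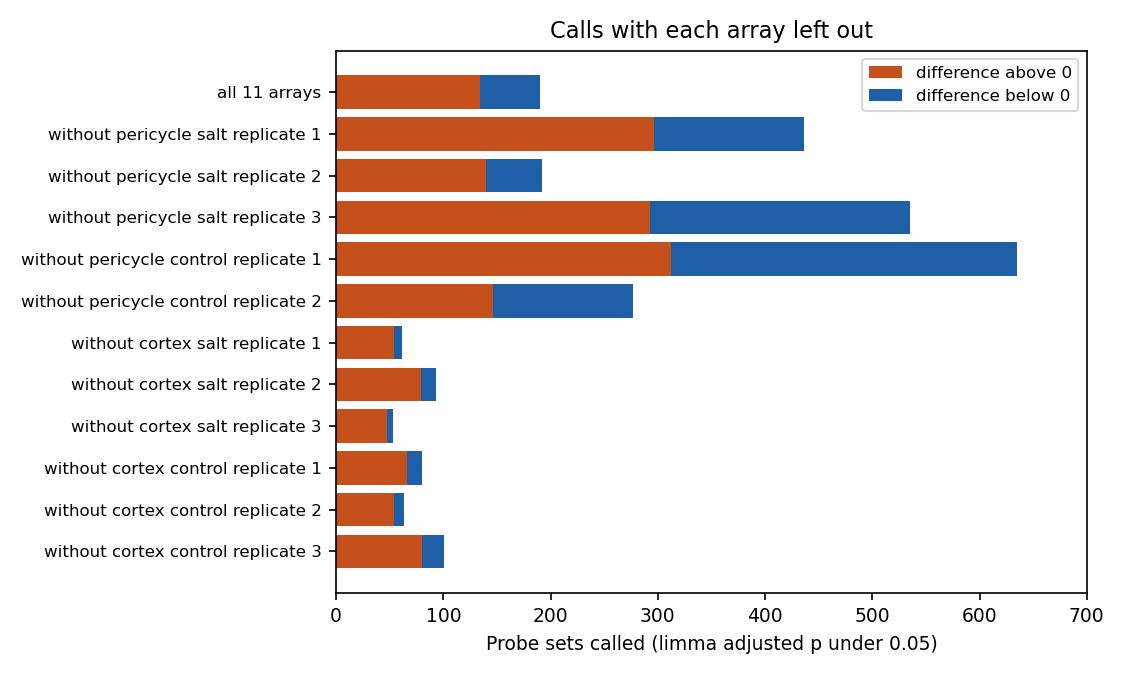
Number of probe sets whose difference of responses passed in limma (x axis, adjusted p under 0.05) with all 11 arrays (190) and with each array left out in turn; orange is the count above 0 and blue the count below 0. The count is 192 to 635 without a pericycle array and 53 to 101 without a cortex array.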

How the data were processed

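RNA of sorted cells was amplified, biotin-labelled and hybridised to 11 Affymetrix arrays. The authors deposited log2 values for 22810 probe sets. RMA and limma are named in the submitters' processing notes with no version, and their roles are not given in the sources used here. That the scale is log2 was inferred from the range of the values. Array minima and medians lie lower than RMA usually gives, which leaves the origin of values near the floor uncertain. Depth does not apply to arrays, and their number limits the precision.

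The 64 control probe sets were left out, and 22746 were tested as deposited. A group mean was fitted to each of the 4 groups with limma 3.58.1 in R 4.3.3 (lmFit and contrasts.fit, then eBayes with neither trend nor robust option; 7 residual and 2.96 prior degrees of freedom). P-values are two-sided and adjusted by the Benjamini-Hochberg method over all 22746. Results with an adjusted p under 0.05 are said to pass. Errors are limma standard errors unless given as SD. The procedure was tested on simulated data in which a probe set had the same spread in all groups. That test does not cover the unequal spread of pericycle and cortex arrays. Named genes are the 15 largest differences in each direction among probe sets that passed with exactly 1 gene, all probe sets that passed in opposite directions in both layers, members of gene lists that passed (up to 6), and, for lists of 5 or more with none, the member with the highest mean (1). Members and lists were chosen with earlier results of these data known.

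Of the probe sets tested, 13513 had exactly 1 gene in the probe annotation, 503 had several and 8730 had none there; 13436 were matched by gene identifier to RefSeq (TAIR10.1) for symbols. Ribosomal protein genes had been listed too, but none was named in the annotation. No coordinates or sequences are printed. Alternatives were array weights per array or per cell type, a trended or robust prior, leaving out dim probe sets, quantile normalization, median centring, the replicate number as a block, an adjusted p under 0.1 and leaving out each array.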

Additional observations from a re-analysis of the deposited data

Results flagged for a closer look

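The results in this section are those in which the salt response differed between pericycle and cortex by a test of the difference itself, the interaction contrast in limma, at an adjusted p under 0.05. There were 190 such probe sets. All values are log2, the pericycle response minus the cortex response, and no explanation was tested. A change in a layer alone means that the response of the other layer did not pass, which does not show that it was absent.

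Opposite responses, up in pericycle and down in cortex, gave 4.89 for PMEPCRF, 3.25 for 255591_at, 2.80 for GH9C2, 2.74 for AT4G23730 and 2.58 for AT2G01300. A fall in both layers that was smaller in pericycle gave 3.34 for AT5G15180.

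A fall in cortex alone gave 3.94 for AT5G19240, 3.63 for AT5G01210, 3.56 for AT5G55050, 3.48 for AT3G16560, 3.36 for AT3G18560, 3.31 for AT3G22240 and 3.13 for AT5G48290. It gave 3.08 for AT2G42860, 2.97 for AT3G18450 and 2.96 for AT1G51990, which were near the floor in pericycle, and 2.61 for TBL41, 2.28 for UGT71C1, 2.05 for BGLU15 and 1.92 for GT72B1. A rise in pericycle alone gave 3.59 for AT2G41810, 2.62 for BGLU40, 2.46 for CML42 and 1.48 for GTR1, of which BGLU40 was near the floor in cortex.

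A fall in pericycle alone gave -4.11 for IAA29, -3.06 for AT3G52900, -2.79 for AT2G27740, -2.55 for AT1G67510, -2.33 for AT4G11210 and -2.11 for AT2G42130, all 6 near the floor in cortex. It gave -2.33 for AT3G26850, -2.00 for AT3G51950 and -1.26 for ATG8C, which were not. A rise in cortex alone gave -3.89 for AT5G07330, -2.99 for AT5G38030, -2.51 for PAP20, -2.29 for AT1G80750, -2.13 for AT1G66360 and -2.00 for AT2G34020. Of these, AT5G38030 and AT2G34020 were near the floor in pericycle. AT1G64490, with -2.74, passed in neither layer alone.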

How the results depend on the processing

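All 40 named differences kept their sign under every alternative that tested them, a property that their selection for large differences favours. A weight per cell type, a trended or robust prior, the filter for dim probe sets and the 0.1 threshold leave each difference unchanged. Those settings could not change a sign. Counts of probe sets that passed moved more than 1.5 times under some alternatives. With a weight per array, 32 passed in pericycle and 4775 in cortex, and the balance in cortex turned, with 2687 up and 2088 down (56.3% up) against 326 and 620 (34.5% up) without weights. With a weight per cell type (0.405 for pericycle and 2.13 for cortex arrays), 48 passed for the difference, all among the 190 (42 positive and 6 negative), with 5 in pericycle and 4214 in cortex (2346 up and 1868 down). At an adjusted p under 0.1, 456 passed for the difference and 992 in pericycle. The labels tie no replicate number across groups, and residuals of same-numbered arrays correlated at -0.151 to 0.107, so the numbers were not taken to pair arrays. With the replicate block, 121 passed for the difference (96 positive and 25 negative) and 194 in pericycle. Leaving out each array gave 53 to 635 for the difference, 183 to 1124 in pericycle and 362 to 1701 in cortex. Under scaling, filters and priors the total stayed within 1.5 times but the members changed: 166 of the 190 were among 178 with quantile normalization, 177 among 192 with median centring, 148 among 167 without dim probe sets, 139 among 174 with a trended prior and 163 among 163 with a robust prior. Negative differences were 40 with the trended prior, against 56. Of values that had not passed, 3 changed sign. EXPA9 was -0.057 without pericycle control replicate 1 and up to 0.67 without another array. RR22 was -0.088 without pericycle control replicate 1 and up to 0.32 without another array. GSTU26 was 0.030 without pericycle salt replicate 1 and down to -0.24 without another array. The cause was not tested. The fit pools the spread of pericycle and cortex arrays, and pericycle control has 2 arrays, which limits every pericycle response; with 1 of them left out, the lone array is assumed to vary like the other groups.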

Other observations

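Identical values recurred across arrays of the deposited table. Of 22746 probe sets, 7801 (34.3%) had the same value on at least 2 arrays, and 25 of the 190 whose difference passed did so (13.2%). Both pericycle control arrays had the same value for 195 probe sets, of which TBL41, at 4.69 on both, was the 1 whose difference passed. AT5G48290 had 2.82 on pericycle salt replicates 1 and 2 and pericycle control replicate 1, and AT3G51950 had 4.45 on pericycle salt replicate 3 and cortex salt replicates 1 and 3. All 3 arrays of a group shared a value for 15 probe sets in pericycle salt, 75 in cortex salt and 51 in cortex control.

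A second probe set was present for 1 gene among those that passed with exactly 1 gene. For AT5G47400 the second probe set had a difference of -0.89 ± 0.538 and did not pass (limma adjusted p = 0.578). OPS was the 1 phloem marker of 4 found in the probe annotation. It averaged 7.08 in pericycle salt and 5.98 in pericycle control arrays, and 4.26 in cortex salt and 4.31 in cortex control arrays. Its difference of 1.14 did not pass (limma adjusted p = 0.373). The root hair marker AT4G08410 fell with salt in both layers, with responses of -1.55 in pericycle and -2.10 in cortex, and a difference of 0.55 that did not pass (limma adjusted p = 0.684).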
